A study of Mus musculus with 6 samples.

Results

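The genes described here are 9 negative regulators of the extracellular signal-regulated kinase (ERK) pathway in mouse cumulus-oocyte complexes: the dual-specificity phosphatase genes Dusp1, Dusp4, Dusp5 and Dusp6, the Sprouty genes Spry1, Spry2 and Spry4, and the Spred genes Spred1 and Spred2. They were chosen by gene symbol, and with earlier results of these data known. Every probe set (a group of short probes read as 1 value on the array) whose only symbol in the platform's annotation was one of these names was taken, which gave 24 of 45037 probe sets and 9 of 18193 named genes. Such a complex consists of an oocyte enclosed in cumulus, a specialised kind of granulosa cell. All 6 samples were pooled complexes of wild-type immature female mice that had received equine chorionic gonadotropin (eCG, which drives follicle growth) for 48 h. The ovulatory stimulus was human chorionic gonadotropin (hCG), with 2 arrays of complexes that had none, 2 arrays 8 h after hCG and 2 arrays 16 h after hCG. The sources used here give neither strain, age in days nor the number of animals per pool. Per the labels, puncture of ovaries gave the complexes without hCG, whereas the oviduct is named as the source at 8 h and at 16 h, so the hormone and the place of collection cannot be told apart in comparisons with the group without hCG. Ovulation in mice usually comes later than 8 h after hCG, so the place named for that group is in doubt, and time and place cannot be told apart with certainty between 16 h and 8 h either. The labels also call the complexes without hCG expanded, a word usually used of complexes after the ovulatory signal. These arrays include no later group without hCG, so time since eCG may also differ and cannot be told apart from the hormone.

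ERK is the last kinase of a relay that runs from receptor tyrosine kinases through Ras, Raf and MEK. In the preovulatory follicle the luteinising hormone signal, which hCG mimics, makes mural granulosa cells release EGF-like ligands, and these activate ERK in the cumulus, which is needed for the cumulus to expand and for the oocyte to resume meiosis. The pathway induces its own inhibitors. Dual-specificity phosphatases remove the activating phosphates from the kinase itself, whereas Sprouty and Spred proteins act upstream, between the receptor and Raf.

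The values are log2 intensities, so a difference of 1 is a doubling of the measured signal, and levels of different probe sets are not comparable with each other. A gene is given by its probe set with the highest mean over the 6 arrays. A change is a difference of log2 group means ± SE of a limma fit to all 6 arrays, with n = 2 arrays per group, and it was called at an adjusted p (Benjamini-Hochberg over 27022 tested probe sets) under 0.05. Probe sets with a mean under 5.62, the 40th percentile, were called dim and not tested. All 9 genes were tested, by 22 of their 24 probe sets, with 1 dim probe set each for Spry4 and Spred1. The 3 comparisons share arrays, so their values for a gene stand side by side here and are not independent of each other. The labels do not state whether a group's 2 arrays stem from different mice. The p-values therefore reflect array-to-array spread alone, and this may be technical.

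Arrays of a group correlated at 0.991 (no hCG), 0.996 (8 h) and 0.995 (16 h) across probe sets, and at 0.943 to 0.978 between groups. The mean log2 intensity of 16 oocyte markers was 10.73 to 10.83 without hCG, 8.63 to 8.70 at 8 h and 8.27 to 8.55 at 16 h, and of the 15 tested among them 15 were called lower both at 8 h and at 16 h than without hCG. The 9 measured cumulus and granulosa markers of a list of 10 averaged 12.15 without hCG, 10.96 to 11.02 at 8 h and 10.53 to 10.60 at 16 h. The 15 leukocyte markers averaged 6.41 to 6.66 without hCG, 6.56 to 6.72 at 8 h and 8.37 at 16 h. For 8 oviduct epithelium markers the means were 7.55 to 7.70 without hCG, 7.27 to 7.33 at 8 h and 8.50 to 8.64 at 16 h, with 2 of them dim. The 10 theca and stroma markers averaged 7.84 to 7.91 without hCG, 6.98 to 7.34 at 8 h and 6.44 to 6.48 at 16 h. The 7 endothelial markers averaged 5.39 to 5.72, and 5 of them were dim. Of the 2 tested, Cdh5 averaged 5.48 (dim) without hCG, 8.34 at 8 h and 8.44 at 16 h. It was called higher at both times than without hCG. Kdr averaged 7.06, 7.33 and 7.55 in the same order and was called higher at 16 h only. Of 5 erythrocyte markers 2 were measured and averaged 6.20 to 6.69. In such pooled tissue, fewer cells of a type and less RNA per cell cannot be told apart, and the part of these shifts in the changes below was not tested.

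At 8 h after hCG, all 4 phosphatase genes and both Spred genes were higher than without hCG, whereas the Sprouty genes split, with Spry2 higher and Spry1 and Spry4 lower. In all 9 genes were called, 7 higher and 2 lower, where 37.4% of 13559 tested genes were called in this comparison, 16.9% higher and 20.5% lower. The median change of the 9 genes was 1.13, against -0.02 for all tested genes. Since the 9 genes were chosen with earlier results of these data known, such contrasts with all tested genes are description only. The arrays of both groups did not overlap for any of the 9 genes, which held for 67.5% of all tested genes.

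**Figure D1:**
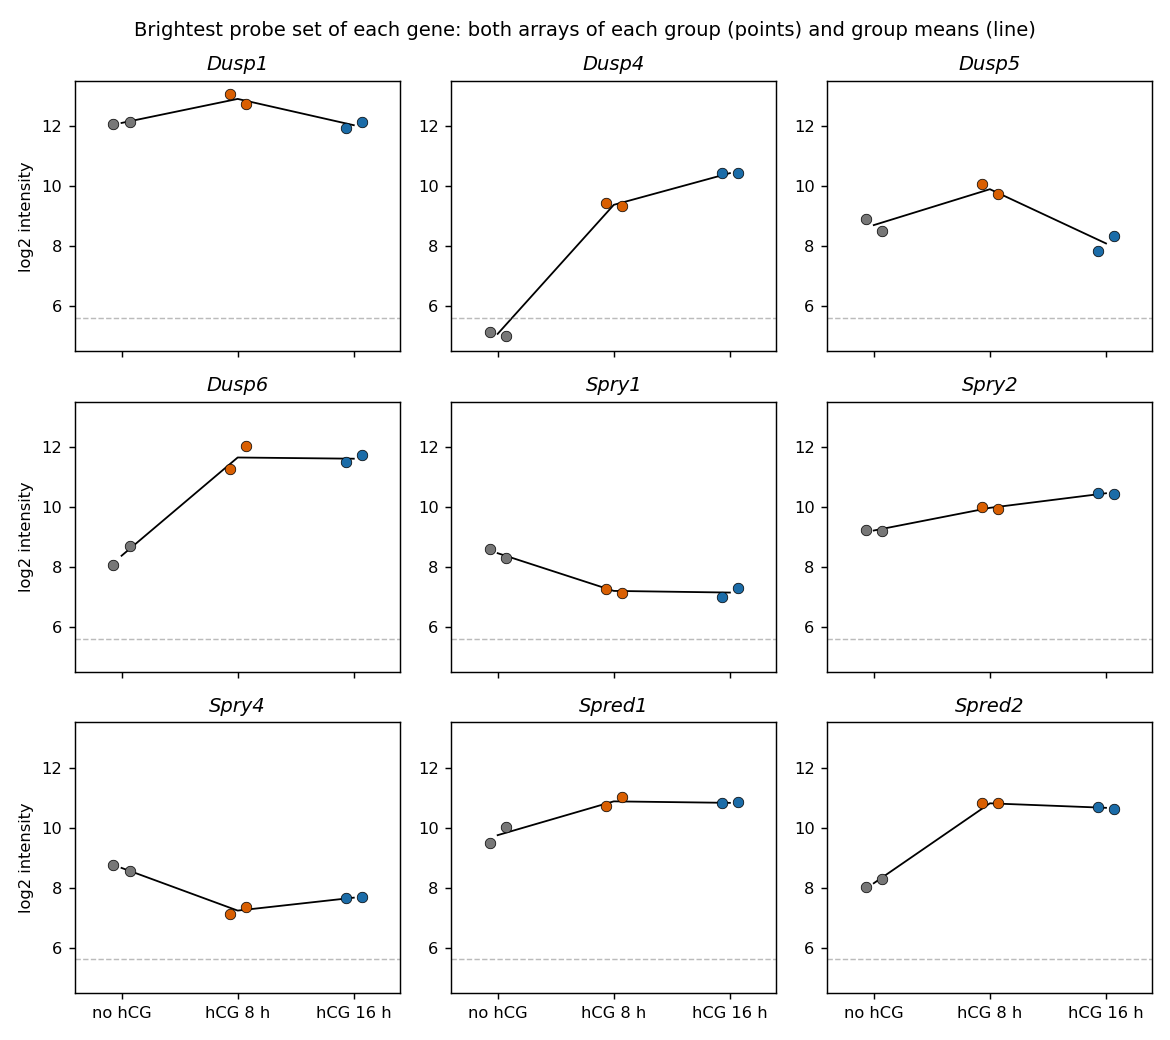
Log2 intensity (vertical axis, same range in each panel) of the brightest probe set of each of the 9 genes in the groups no hCG, hCG 8 h and hCG 16 h (horizontal axis). Points are single arrays, 2 per group, the line joins group means and the dashed line is the limit for dim probe sets (5.62). Dusp4 without hCG lies under that limit, Dusp1 and Dusp5 are highest at 8 h, and Spry1 and Spry4 are highest without hCG.

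Dusp4 encodes a nuclear phosphatase of ERK and the stress kinase JNK. At probe set 1428834_at the log2 intensity was 5.14 and 5.03 without hCG, 9.43 and 9.33 at 8 h and 10.44 and 10.43 at 16 h. The 3 groups did not overlap, and both arrays without hCG lay under the limit for dim probe sets, so the size of the rise is uncertain and may be understated. At 8 h it was higher by 4.29 ± 0.15 (19.6-fold, adjusted p = 1.85e-07). From that level it rose again by 1.06 ± 0.15 at 16 h (2.08-fold, adjusted p = 0.00101). Relative to complexes without hCG, the 16 h value was higher by 5.35 ± 0.15 (40.8-fold, adjusted p = 6.96e-08). Dusp4 was 1 of 2 genes in the group, with Spry2, that were called higher in each of the 3 comparisons. For Spry2 the call between 16 h and 8 h was near the threshold.

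Dusp6 encodes a cytoplasmic phosphatase with a strong preference for ERK, whose own transcription is a common readout of ERK activity. At probe set 1415834_at the log2 intensity was 8.06 and 8.69 without hCG, 11.27 and 12.02 at 8 h and 11.48 and 11.73 at 16 h. Both later groups lay above the group without hCG and overlapped each other. The rise at 8 h was 3.27 ± 0.27 (9.64-fold, adjusted p = 1.74e-05) and that at 16 h against no hCG 3.23 ± 0.27 (9.38-fold, adjusted p = 1.45e-05). Between 16 h and 8 h the change was -0.04 ± 0.27 (95% interval -0.65 to 0.58, adjusted p = 0.954). Dusp6 also had the widest gaps between arrays of a group among the 9 genes, 0.63 without hCG and 0.74 at 8 h, and the lower value was in replicate 1 both times.

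Dusp1 encodes a nuclear phosphatase of the kinases ERK, p38 and JNK and is a classic immediate-early gene. At probe set 1448830_at the log2 intensity was 12.07 and 12.14 without hCG, 13.07 and 12.74 at 8 h and 11.93 and 12.13 at 16 h. The 8 h arrays lay above all others, and the 16 h arrays overlapped those without hCG. At 8 h it was higher than without hCG by 0.80 ± 0.17 (1.74-fold, adjusted p = 0.00506), and at 16 h lower than at 8 h (-0.88 ± 0.17, 1.84-fold lower, adjusted p = 0.00603). The change at 16 h against no hCG was -0.08 ± 0.17 (95% interval -0.46 to 0.31, adjusted p = 0.774). Both calls were lost when 8 h replicate 1 was left out, with adjusted p = 0.0648 for the first and 0.0803 for the second. Leaving out 16 h replicate 1 also ended the second (adjusted p = 0.0658).

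Dusp5 encodes a nuclear phosphatase specific for ERK. At probe set 1437199_at the log2 intensity was 8.90 and 8.51 without hCG, 10.07 and 9.73 at 8 h and 7.84 and 8.35 at 16 h. Here too the 8 h arrays were the highest, but both 16 h arrays lay below both arrays without hCG. The rise at 8 h was 1.20 ± 0.22 (2.30-fold, adjusted p = 0.00224). At 16 h the gene was lower than at 8 h (-1.81 ± 0.22, 3.51-fold lower, adjusted p = 0.000434), the largest fall of the 9 genes in that comparison. The 16 h value against no hCG, -0.61 ± 0.22, missed the threshold (adjusted p = 0.0556). It passed when the dim filter was raised to the 60th percentile (adjusted p = 0.0478), when replicate 2 without hCG was left out (0.0219) and when 16 h replicate 2 was left out (0.0406), while other alternatives reached 0.353.

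Spred2 and Spred1 encode membrane-bound proteins that bind Ras regulators, among them neurofibromin, and keep Ras from activating Raf. Spred2 (1434403_at) was 8.02 and 8.28 without hCG, 10.81 and 10.81 at 8 h and 10.70 and 10.62 at 16 h. Its rise at 8 h was 2.66 ± 0.16 (6.32-fold, adjusted p = 2.48e-06), the third largest of the 9 genes, and at 16 h against no hCG it was 2.51 ± 0.16 (5.69-fold, adjusted p = 2.17e-06). The 16 h arrays lay just below those of 8 h, without a call (-0.15 ± 0.16, 95% interval -0.51 to 0.20, adjusted p = 0.617). Spred1 (1423160_at) was 9.49 and 10.01 without hCG, 10.73 and 11.02 at 8 h and 10.81 and 10.84 at 16 h, so both later groups lay above the first and overlapped each other. It was higher by 1.13 ± 0.20 at 8 h (2.18-fold, adjusted p = 0.00179) and by 1.08 ± 0.20 at 16 h (2.11-fold, adjusted p = 0.00204) than without hCG. From 8 h to 16 h its change was -0.05 ± 0.20 (95% interval -0.49 to 0.40, adjusted p = 0.92).

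Sprouty proteins are cytoplasmic and membrane-associated inhibitors of signalling from receptor tyrosine kinases to Ras. Spry2, whose protein also binds the ubiquitin ligase Cbl, was at probe set 1436584_at 9.22 and 9.21 without hCG, 10.01 and 9.93 at 8 h and 10.48 and 10.43 at 16 h. No group overlapped another. Its rise at 8 h was 0.76 ± 0.15 (1.69-fold, adjusted p = 0.00298), and at 16 h against no hCG 1.25 ± 0.15 (2.37-fold, adjusted p = 0.000122). The step from 8 h to 16 h was 0.49 ± 0.15 (1.40-fold, adjusted p = 0.0474). That last call was lost after quantile normalization (0.0526), with arrays centred on their median (0.0519), with the mean of its probe sets (change 0.23, 0.269) and without any 1 of the 4 arrays compared (0.137 to 0.264).

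Spry1 had 1 probe set, 1415874_at, at 8.61 and 8.31 without hCG, 7.26 and 7.15 at 8 h and 7.0 and 7.30 at 16 h. Both later groups lay below the arrays without hCG. Spry1 was lower at 8 h (-1.25 ± 0.18, 2.39-fold lower, adjusted p = 0.000423) and at 16 h (-1.31 ± 0.18, 2.48-fold lower, adjusted p = 0.000288) than without hCG. At 16 h against 8 h it changed by -0.05 ± 0.18 (95% interval -0.45 to 0.34, adjusted p = 0.896). Spry4 (1422021_at) was 8.76 and 8.56 without hCG, 7.13 and 7.35 at 8 h and 7.66 and 7.68 at 16 h. It was lower at 8 h (-1.41 ± 0.16, 2.67-fold lower, adjusted p = 0.000112) and at 16 h (-0.99 ± 0.16, 1.98-fold lower, adjusted p = 0.000958) than without hCG. The oocyte, granulosa and theca marker means above were also lower in those comparisons, in which more of the 9 genes were called higher than lower. The part of these markers in changes of either direction was not tested.

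**Figure D2:**
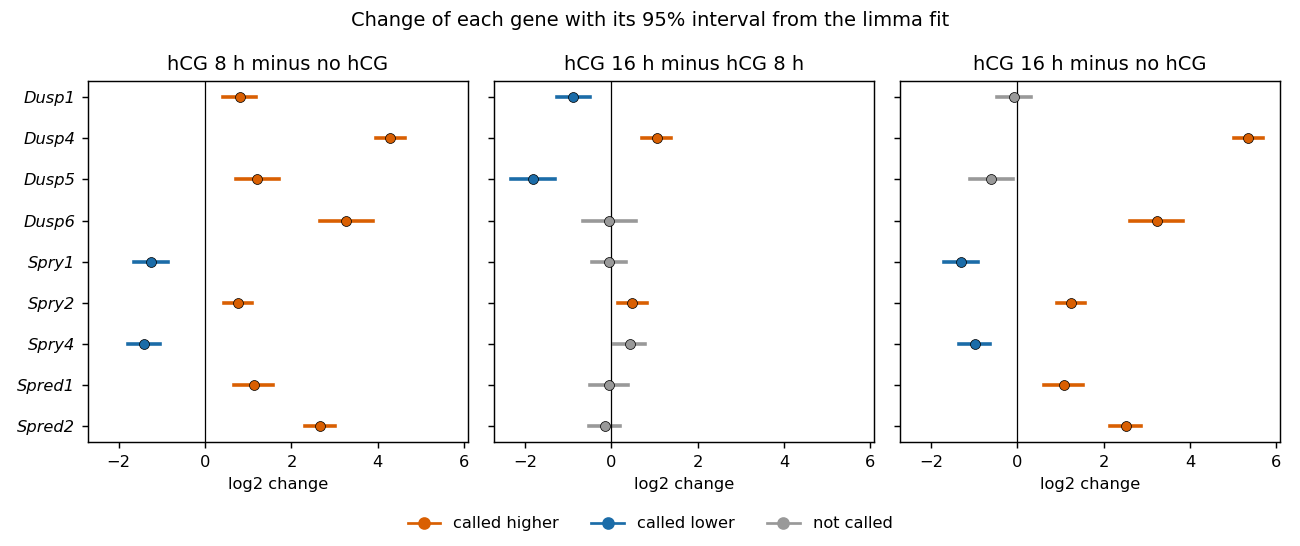
Log2 change of each of the 9 genes (points, brightest probe set) with its 95% interval from the limma fit (bars) for hCG 8 h minus no hCG, hCG 16 h minus hCG 8 h and hCG 16 h minus no hCG, with n = 2 arrays per group. Orange marks genes called higher, blue genes called lower and grey genes not called. In the first panel 7 genes lie right of 0 and Spry1 and Spry4 left of it, and in the second Dusp1 and Dusp5 lie left of 0 and Dusp4 and Spry2 right of it.

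From 8 h to 16 h, 4 of the 9 genes were called, Dusp4 and Spry2 higher and Dusp1 and Dusp5 lower, where 20.9% of tested genes were called (11.8% higher, 9.12% lower). The median change was -0.05, against 0.01 over all tested genes. Leaving out 8 h replicate 1, or 16 h replicate 1, reduced the number to 2. The arrays did not overlap for 6 of the 9 genes, against 61.8% of all tested genes. In this comparison 4 of 6 tested oviduct epithelium markers were called higher and 1 lower. Among them Ovgp1, the oviductal glycoprotein gene, averaged 11.73 at 16 h and 7.88 at 8 h, and the keratin gene Krt18 10.27 at 16 h and 7.05 at 8 h. Of 14 tested leukocyte markers 13 were called higher, and the part of these markers in the 4 calls was not tested. Against no hCG, 7 genes were called at 16 h, 5 higher (Dusp4, Dusp6, Spry2, Spred1 and Spred2) and 2 lower (Spry1 and Spry4), where 41.6% of tested genes were called (20.8% higher, 20.8% lower). The arrays did not overlap for 8 of the 9, against 69.1% of all tested genes. Here the median was 1.08, against -0.02 over all tested genes. In the same comparison 13 of 14 tested leukocyte markers were called higher, and their part in these values was not tested. By these calls the genes had 4 courses. Dusp1 and Dusp5 were higher at 8 h and not called different from the start at 16 h. Dusp6, Spred1 and Spred2 were higher at both times without a further change called. Dusp4 and Spry2 were higher at 8 h and higher again at 16 h. The second Spry2 call was near the threshold (adjusted p = 0.0474) and was lost after quantile normalization. Spry1 and Spry4 were lower at both times.

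RefSeq promoter sequences (build GRCm38.p6) were matched for 7 of the 9 genes, all but Dusp4 and Spry4, and the 250 bases before each start were searched on both strands for 6 motifs of factors downstream of cAMP or ERK. These were the cAMP response element (CRE) TGACGTCA, its core TGACG outside a CRE, and the AP-1 site TGACTCA or TGAGTCA. The others were the ETS sequence CCGGAA, the EGR site GCGTGGGCG and the CArG box of serum response factor. Below are the promoters of the 2 genes that were highest at 8 h, Dusp1 (chr17:26508473-26508722, minus strand) and Dusp5 (chr19:53528895-53529144, plus strand), and of 2 genes that were high at both times, Dusp6 (chr10:99262981-99263230, plus strand) and Spred2 (chr11:19924192-19924441, plus strand), each 5′ to 3′ on the gene's strand and ending at the base before the start. Capitals mark matches.
Dusp1: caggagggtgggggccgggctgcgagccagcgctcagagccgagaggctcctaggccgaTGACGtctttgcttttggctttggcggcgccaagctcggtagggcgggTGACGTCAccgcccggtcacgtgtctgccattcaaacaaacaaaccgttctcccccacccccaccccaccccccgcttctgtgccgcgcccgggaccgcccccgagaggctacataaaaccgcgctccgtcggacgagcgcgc
Dusp5: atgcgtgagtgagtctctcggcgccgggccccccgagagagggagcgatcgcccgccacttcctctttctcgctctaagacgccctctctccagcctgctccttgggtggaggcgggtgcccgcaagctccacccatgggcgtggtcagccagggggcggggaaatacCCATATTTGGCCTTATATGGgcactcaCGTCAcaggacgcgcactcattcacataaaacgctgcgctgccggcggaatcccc
Dusp6: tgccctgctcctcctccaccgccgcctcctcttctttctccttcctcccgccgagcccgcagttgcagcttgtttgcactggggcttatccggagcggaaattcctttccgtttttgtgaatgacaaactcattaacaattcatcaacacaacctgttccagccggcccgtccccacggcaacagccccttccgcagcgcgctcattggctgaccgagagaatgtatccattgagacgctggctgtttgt
Spred2: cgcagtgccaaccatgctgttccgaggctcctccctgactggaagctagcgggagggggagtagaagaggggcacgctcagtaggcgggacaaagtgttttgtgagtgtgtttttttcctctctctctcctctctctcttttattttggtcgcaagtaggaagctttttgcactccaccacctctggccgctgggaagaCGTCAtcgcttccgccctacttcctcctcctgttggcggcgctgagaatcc
In Dusp1 the capitals are a CRE core 191 to 187 bases before the start and a full CRE 143 to 136 bases before it. Dusp5 has 2 adjoining CArG boxes, 82 to 73 and 72 to 63 bases before the start, followed by a CRE core read on the opposite strand (55 to 51). In Spred2 a CRE core on the opposite strand lies 51 to 47 bases before the start. Dusp6 holds none of the 6 motifs, in the forms searched, in this window, and neither do Spry1, Spry2 and Spred1. Other forms of these sites, such as a shorter ETS sequence, were not searched. Of all 32851 promoters in the table, 1.55% held the full CRE, 16.6% a core outside it and 1.47% a CArG box. The AP-1 site was in 4.46%, the ETS sequence CCGGAA in 12% and the EGR site in 0.536%. These are matches of letters only, and no binding was measured.

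For the genes with more than 1 probe set, the other probe sets did not always follow the one used. Over all 22 tested probe sets, 14 were called at 8 h against no hCG (10 higher, 4 lower), where 33.9% of all tested probe sets were called (16.4% higher, 17.5% lower). At 16 h against 8 h 5 were called (2 higher, 3 lower, with 1 of the 3 dim in both groups), where 18.2% were (9.76% higher, 8.45% lower). For 16 h against no hCG 14 were called (10 higher, 4 lower), where 37.3% were (19% higher, 18.3% lower).

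Spry4 had 3 tested probe sets, and each of them was called lower at 8 h and at 16 h than without hCG. Between 16 h and 8 h the probe set used, 1422021_at, had a change of 0.43 ± 0.16 (adjusted p = 0.104) and 1440867_at one of -0.38 ± 0.17 (adjusted p = 0.157), neither of them called. At 1445669_at the arrays read 7.21 and 7.70 without hCG, 5.41 and 5.54 at 8 h and 4.47 and 4.10 at 16 h. Both later groups lay under the dim limit there, so the sizes of its changes are uncertain (-3.17 ± 0.20 at 16 h against no hCG, adjusted p = 2.52e-06), and its change between 16 h and 8 h, although past the threshold (-1.19 ± 0.20, adjusted p = 0.00309), compares dim values only. With the mean of the 3 probe sets in place of the brightest, the change at 16 h against no hCG was -1.94 and that against 8 h -0.38, both resting in part on that dim probe set.

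Spred2 had 5 tested probe sets. The brightest, 1434403_at, and 1436892_at (higher by 1.77 ± 0.30 at 8 h, adjusted p = 0.00128, and by 1.48 ± 0.30 at 16 h, adjusted p = 0.00334) were called at both times against no hCG. At 1436892_at the arrays without hCG, 5.26 and 4.56, lay under the dim limit, so the sizes of its changes are uncertain. The other three had changes at 8 h of 0.03 ± 0.19 (1423001_at), 0.06 ± 0.18 (1441802_at) and 0.10 ± 0.15 (1441415_at) and were not called in any comparison. The mean of the 5 gave 0.92 at 8 h and 0.91 at 16 h against no hCG, called higher both times, in place of 2.66 and 2.51 for the brightest.

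Of 7 tested probe sets of Spred1, 3 were called higher at 8 h and 5 at 16 h against no hCG. The next brightest, 1423161_s_at, was higher by 1.01 ± 0.15 at 8 h and by 1.01 ± 0.15 at 16 h, close to the 1.13 and 1.08 of the probe set used. The mean of the 7 gave 0.72 at 8 h and 0.80 at 16 h. At 1423162_s_at the 16 h arrays read 7.60 and 8.65, the widest gap among the probe sets of the 9 genes. For Spry2, the second probe set, 1421656_at, lay near the dim limit, with means of 5.53 (no hCG), 5.94 (8 h) and 5.92 (16 h), and was not called (0.41 ± 0.15 at 8 h, adjusted p = 0.0613, and 0.39 ± 0.15 at 16 h, adjusted p = 0.0699, each against no hCG).

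**Figure D3:**
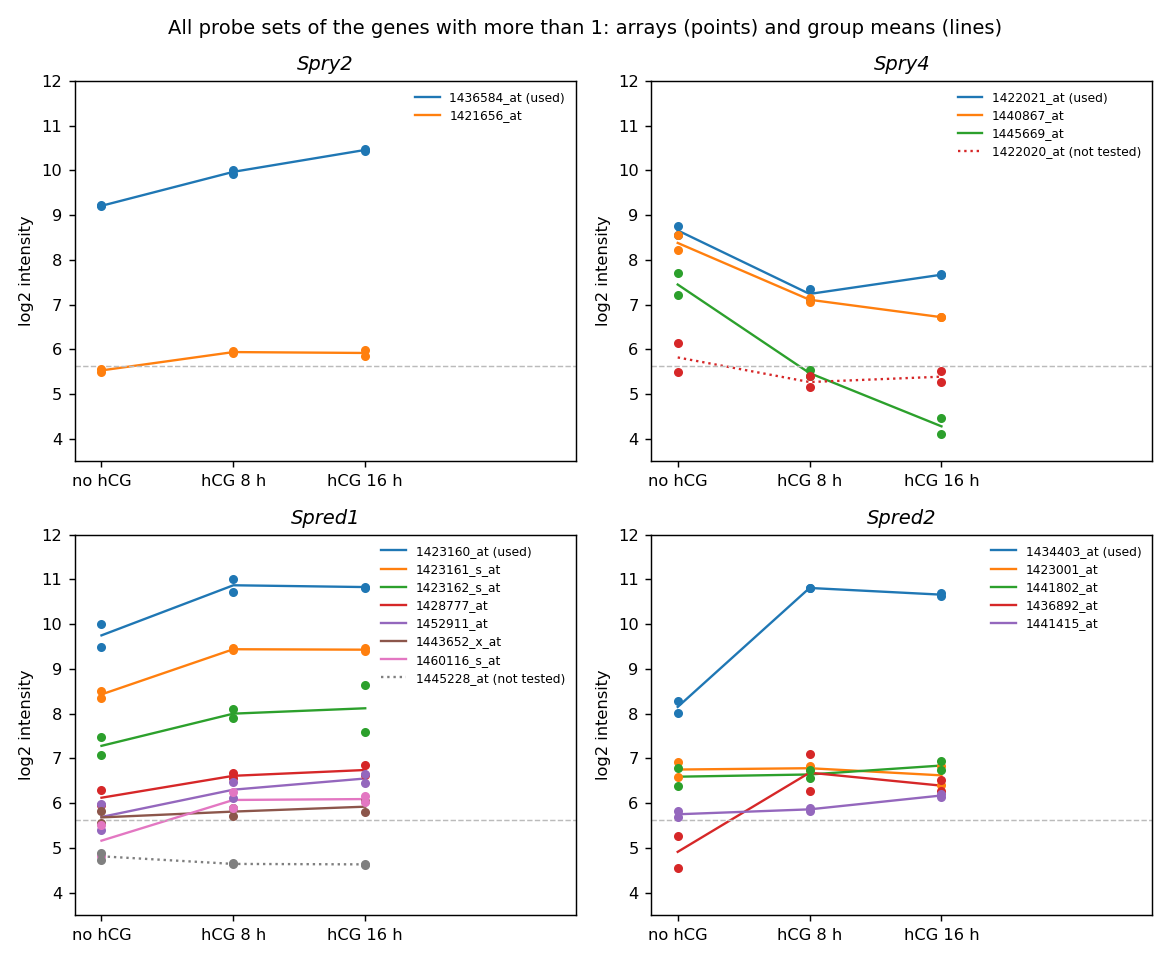
Log2 intensity (vertical axis) of every probe set of Spry2, Spry4, Spred1 and Spred2 in the groups no hCG, hCG 8 h and hCG 16 h (horizontal axis), with points for arrays, lines for group means, dotted lines for probe sets not tested and a dashed line at the dim limit (5.62). The 3 tested Spry4 probe sets are lower at 8 h than without hCG, 1445669_at lying under the dim limit at 8 h and 16 h, and 3 of the 5 Spred2 probe sets stay nearly level while 1434403_at and 1436892_at climb.

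Other genes of the pathway were taken from lists chosen by role, with earlier results of these data known. The counts below stand beside these shares of all tested genes. At 8 h against no hCG 16.9% were called higher and 20.5% lower. At 16 h against 8 h the shares were 11.8% and 9.12%, and at 16 h against no hCG 20.8% and 20.8%. No list was tested as a set. Among 10 other MAP kinase phosphatase genes, 5 were called higher and 3 lower at 8 h than without hCG, with a median change of 0.48. Dusp2, a nuclear phosphatase induced in activated cells, was higher by 1.60 ± 0.19 at 8 h and lower at 16 h than at 8 h (-1.42 ± 0.19). Dusp16, which acts on JNK and p38, was higher by 1.17 ± 0.15 at 8 h and 1.28 ± 0.15 at 16 h than without hCG. Dusp14 was lower at 8 h (-1.97 ± 0.19) and rose at 16 h against 8 h (1.29 ± 0.19), while Dusp7, a cytoplasmic ERK phosphatase of the same subfamily as Dusp6, was lower than without hCG at 8 h (-1.47 ± 0.18) and at 16 h (-1.05 ± 0.18). Between 16 h and 8 h 1 of the 10 was called higher and 3 lower, and at 16 h against no hCG 3 higher and 4 lower. Without 8 h replicate 1 the 5 higher became 3, without any 1 of the 4 arrays compared the 3 lower at 16 h than at 8 h became 1, and the 4 lower became 2 without replicate 1 of no hCG or replicate 2 of 16 h. Adjusted p-values of the called values in this paragraph ran from 0.000724 to 0.00141 at 16 h against 8 h, from 4.34e-05 to 0.000218 at 8 h against no hCG, and were 0.000105 for Dusp16 and 0.00134 for Dusp7 at 16 h against no hCG.

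Of 18 other tested genes that damp receptor signalling, 7 were called higher and 2 lower at 8 h than without hCG, and 11 higher and 2 lower at 16 h. The 11 became 7 with the mean of each gene's probe sets. The 2 lower at 16 h became 1 with arrays centred on their median, without the dim filter and with it at the 60th percentile. The same held with a trended variance prior and with the compared groups alone. That count also changed when some single arrays were left out. Errfi1, an inhibitor of the EGF receptor kinase, was higher by 3.21 ± 0.15 at 8 h (adjusted p = 7.86e-07) and lower at 16 h than at 8 h (-1.35 ± 0.15, adjusted p = 0.000284). The adaptor gene Dok1, whose protein recruits a Ras GTPase-activating protein, was higher by 2.29 ± 0.18 at 8 h and by 2.04 ± 0.18 at 16 h than without hCG (adjusted p = 1.33e-05 and 2.11e-05). Cblb, a ubiquitin ligase of activated receptors, rose by 1.71 ± 0.15 at 8 h and by 2.04 ± 0.15 at 16 h on the same basis (adjusted p = 2.29e-05 and 5.82e-06). Il17rd, which encodes the FGF pathway inhibitor Sef, was lower at 8 h than without hCG, as Spry1 and Spry4 were (-1.68 ± 0.18, adjusted p = 6.61e-05), and rose by 1.18 ± 0.18 at 16 h against 8 h (adjusted p = 0.00142).

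Upstream, 10 of 14 listed EGF-like ligand and receptor genes were tested, all but Areg, Nrg1, Nrg4 and Erbb4. Of the 10, 5 were called higher and 2 lower at 8 h than without hCG. Among those tested, the ligand genes Ereg, Btc and Epgn led, at 5.93 ± 0.15, 4.83 ± 0.21 and 4.21 ± 0.28 (adjusted p = 5.65e-08, 5.97e-07 and 4.61e-06). Ereg was dim without hCG (mean 4.62), so its size is uncertain. At 16 h Egfr, the receptor of these ligands, was lower than at 8 h (-2.15 ± 0.17, adjusted p = 3.29e-05) after a rise at 8 h (1.06 ± 0.17, adjusted p = 0.000908). Of 24 tested genes of the relay from adaptors to ERK substrates, out of 32 listed, 10 were called higher and 4 lower at 8 h than without hCG, with a median of 0.24, and the rest of the list was not analysed here. The largest values at 8 h were those of the Ras activator gene Sos2 (1.92 ± 0.29), Rras (1.73 ± 0.18) and the adaptor gene Grb2 (1.10 ± 0.16), with adjusted p from 6.06e-05 to 0.000708. The MEK genes had smaller values nearer the threshold, Map2k1 with -0.46 ± 0.15 (adjusted p = 0.0408) and Map2k2 with 0.60 ± 0.17 (adjusted p = 0.0205). The 4 lower relay genes became 1 with arrays centred on their median or without either 8 h array, and 2 without any 1 of the other arrays or with the compared groups alone. The 10 higher became 6 without 8 h replicate 1.

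Downstream, 12 of 26 tested genes known to respond to ERK were called higher and 2 lower at 8 h than without hCG, with a median change of 0.32. Egr3 (5.20 ± 0.19), Etv5 (3.06 ± 0.22) and Fosl1 (3.03 ± 0.18), all transcription factor genes, and the early response gene Ier3 (1.82 ± 0.17) had the largest values, with adjusted p from 2.82e-07 to 3.66e-05. Without hCG, Egr3 (mean 5.52) and Etv5 (mean 4.77) were dim. At 16 h against 8 h 5 were called higher and 7 lower. Fosb (-2.38 ± 0.23, adjusted p = 0.000105), Jun (-1.85 ± 0.17, adjusted p = 9.19e-05) and Phlda1 (-1.56 ± 0.18, adjusted p = 0.000293) were lower at 16 h than at 8 h, as Dusp1 and Dusp5 were, and Egr2 was higher (1.83 ± 0.16, adjusted p = 7.93e-05). The likeness to Dusp1 and Dusp5 covers this step only for Fosb and Jun. At 8 h against no hCG Phlda1 was higher (1.53 ± 0.18, adjusted p = 0.000127), but Fosb was lower (-0.83 ± 0.23, adjusted p = 0.0175). Jun was not called there (0.14 ± 0.17, adjusted p = 0.609). Relative to no hCG, 11 were called higher and 4 lower at 16 h. The 5 higher at 16 h than at 8 h became 2 without 8 h replicate 1 and 3 without either 16 h array. The 2 lower at 8 h than without hCG became 0 or 1 without any 1 array other than replicate 2 without hCG, 1 after quantile normalization, 1 without the dim filter and 1 with the compared groups alone.

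**Figure D4:**
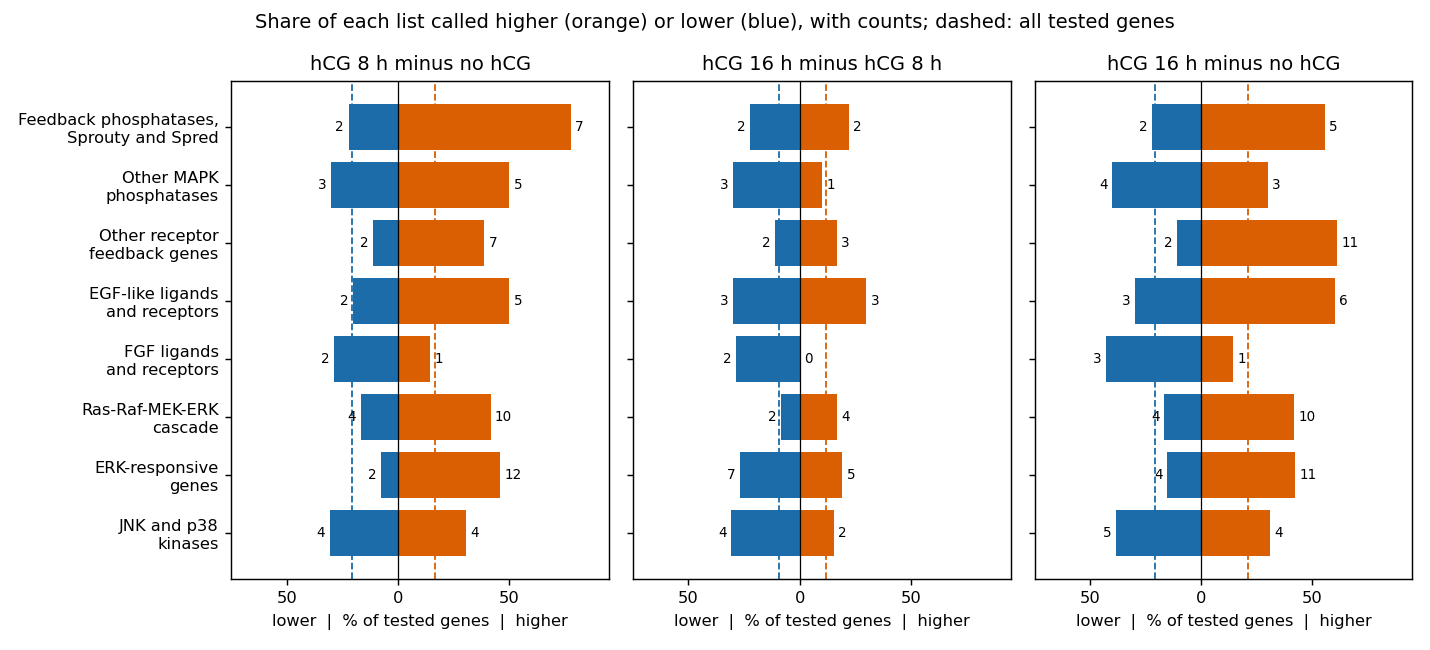
Share of the tested genes of each list (horizontal axis, percent) called higher (orange, right) or lower (blue, left) in hCG 8 h minus no hCG, hCG 16 h minus hCG 8 h and hCG 16 h minus no hCG, with the number of genes at each bar. Dashed lines give the share of all tested genes called in each direction (16.9% higher and 20.5% lower in the first panel). The 9 feedback genes have 7 called higher and 2 lower in the first panel, and the 26 ERK-responsive genes 12 and 2.

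By a rule set on the values alone, the 3 other genes nearest to each member were found among 13550 tested genes as those with the smallest Euclidean distance between log2 values centred on each gene's mean over the 6 arrays. Nearest to Dusp4 were Tnfaip6, which cross-links hyaluronan (distance 0.49), Timp1, a metalloprotease inhibitor gene (0.72), and Cited4 (0.72). Nearest to Dusp6 were Slc25a30 (0.35), Prss35 (0.52) and Etv5 (0.53), the last being on the list of ERK-responsive genes, with means of 4.77 (no hCG), 7.83 (8 h) and 7.67 (16 h). For Dusp1 they were Nxf2 (0.14), Trio (0.17) and Tubb6 (0.26), and for Dusp5 Pappa, a protease gene acting on IGF-binding proteins (0.27), Klf9 (0.48) and Dysf (0.53). Spred2 lay closest to Vim (0.15), which encodes vimentin, Pgap1 (0.16) and Ostf1 (0.21), and Spred1 to Fam76a (0.17), Slc36a4 (0.17) and Slc25a51 (0.18). Spry2 had Arhgef2 (0.08), Maged2 (0.09) and Syngr2 (0.12), Spry1 had Slco4a1 (0.12), Rapgef5 (0.13) and Abcb4 (0.16), and Spry4 had Mesp2 (0.13), Gm15496 (0.20) and Abcb6 (0.24). With 3 groups of 2 arrays, close courses are common among so many genes.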

How the data were processed

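The deposited table gave a log2 intensity for each probe set on each array, with values of 3.32 to 15.5. That the scale is log2 was inferred from this range. How the authors corrected background, normalized and summarised probes is not given in the sources used here. Array medians lay between 6.15 and 6.27, and no further normalization was applied. Signal over background is unknown, since detection calls were not used. Arrays were assigned to groups by their titles. Of 45101 probe sets, 64 controls were left out; 34945 had 1 symbol in the platform annotation, 932 several and 9160 none, and no gene was named from several. A model with 1 mean per group was fitted across the 6 arrays in limma 3.58.1 (lmFit and eBayes, in R 4.3.3), which left 3 residual degrees of freedom and added 6.43 from the prior. All tests were two-sided, and all adjusted p-values come from this fit by the Benjamini-Hochberg method. The test was tried on simulated data with known changes. With 2 arrays per group, the number of arrays limits the precision.

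The members and gene lists were chosen with earlier results of these data known. All member probe sets are described; from each pathway list, up to 4 called genes with the largest changes per comparison, and direct partners of members, could be named, together with the 3 nearest genes of each member. Alternatives covered scaling, the dim filter, the variance prior, the arrays in the fit, a replicate block, the choice of probe set, probe sets prone to cross-hybridisation and each array left out.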

Additional observations from a re-analysis of the deposited data

How the results depend on the processing

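Over 16 alternatives, 411 of 432 changes of the 9 genes kept their direction and their side of the threshold; 10 lost a call, 3 gained one and 8 changed sign. None of the 8 sign changes concerned a called value. The 16 alternatives were not all separate checks. For these genes the dim filters, variance priors and replicate block could not alter a log2 change. Nor could using the compared groups alone or dropping _x_at and _s_at probe sets. Leaving out an array of the group not compared gave the same fit as the compared groups alone. Directions were thus fixed there in advance, and the 432 changes and 672 counts include repeated fits. With the mean of a gene's probe sets, Spry4 at 16 h against 8 h was -0.38 and Spred1 0.08. With 1 array left out, the 16 h against 8 h changes ran from -0.20 to 0.09 for Spry1, from -0.41 to 0.33 for Dusp6 and from -0.19 to 0.10 for Spred1, and Dusp1 at 16 h against no hCG from -0.18 to 0.02. The median change of the 9 genes was 0.80 at 8 h and 0.80 at 16 h, each against no hCG, with the mean of the probe sets, and with 1 array left out it lay between 0.87 and 1.13 and between 0.82 and 1.24. With 1 array left out, the genes called numbered 8 to 9 at 8 h against no hCG, 2 to 4 at 16 h against 8 h and 7 to 8 at 16 h against no hCG. Of all tested probe sets, 6109 to 9450, 2518 to 6340 and 7312 to 10345 were called in the same order, against 9167, 4922 and 10072 with all arrays; without replicate 2 of the 8 h group the first was 6109, and the second was 2518, 2819, 2648 and 2784 without 8 h replicate 1, 8 h replicate 2, 16 h replicate 1 and 16 h replicate 2. Where a group was left with 1 array, it was assumed to vary like the others. Of 672 recomputed counts of called genes in the 7 pathway lists, over 3 comparisons, 2 directions and 16 alternatives, 88 differed by over 1.5 times from the count with all arrays and the settings first described. The count of probe sets was not run with probe sets averaged by gene. The replicate numbers were not taken to pair arrays: deviations from group means of same-numbered arrays correlated at 0.47 between 8 h and no hCG, 0.13 between 16 h and 8 h and 0 between 16 h and no hCG. With the replicate block, 9, 4 and 7 of the 9 genes were called, as without it, and 10117, 5812 and 11045 probe sets. Without detection calls, changes that involve a dim value, as for Dusp4 without hCG, are uncertain in size.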

Other observations

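Of 13 tested genes of the stress kinases JNK and p38, which Dusp1 also dephosphorylates, and of their activators, 4 were called higher and 4 lower at 8 h than without hCG, with a median change of -0.09. Mapk10, a JNK gene, was lower by 1.90 on the log2 scale at 8 h (-1.90 ± 0.16, adjusted p = 1.67e-05, limma), where its mean of 5.49 was dim, and the kinase genes Map3k5 and Map3k7 were lower too (-1.65 ± 0.18, adjusted p = 7.39e-05, and -0.99 ± 0.15, adjusted p = 0.000648). The kinase gene Map2k4, which activates JNK, was higher (0.89 ± 0.15, adjusted p = 0.00128). Of all tested genes, 16.9% were called higher and 20.5% lower at 8 h than without hCG. At 16 h against 8 h 2 of the 13 were called higher and 4 lower, where 11.8% and 9.12% of all tested genes were. Among the lower was Map2k6, an activator of p38 (-1.31 ± 0.16, adjusted p = 0.000463). Without any 1 of the 4 arrays compared the 2 higher became 0 and the 4 lower became 1 or 2.

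Sprouty and Spred proteins also damp FGF signalling. Of 14 listed genes of the FGF family and of FGF receptors 7 were tested. Of the 7, 1 was called higher and 2 lower at 8 h than without hCG, where 16.9% and 20.5% of all tested genes were. The 1 higher became 0 without either 8 h array or replicate 2 of no hCG, and the 2 lower became 1 without any 1 array other than replicate 1 of no hCG, with arrays centred on their median and with the compared groups alone. The receptor gene Fgfr1 was higher (0.55 ± 0.18, adjusted p = 0.0376) and Fgfrl1, which encodes a receptor without a kinase domain, lower (-1.06 ± 0.15, adjusted p = 0.000471). From 8 h to 16 h 2 were called, both lower, where 9.12% of all tested genes were called lower. These were Fgf13 (-1.69 ± 0.23, adjusted p = 0.00083) and the receptor gene Fgfr2 (-1.14 ± 0.18, adjusted p = 0.00169). Of the 2, 1 was called without the _x_at and _s_at probe sets.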
